A study of Arabidopsis thaliana with 24 samples.

Results

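The change of transcript levels over the first day in salt was compared between roots and shoots of Arabidopsis thaliana plants of the Col-0 accession, which most laboratories use. For each probe set, the difference of roots at 24 h minus roots at 0.5 h was set against the difference of shoots at 24 h minus shoots at 0.5 h, and the gap between these changes is called the interaction. The 4 groups, roots at 24 h, roots at 0.5 h, shoots at 24 h and shoots at 0.5 h, were taken from the titles and hold 2 arrays each, 8 of the 24 arrays of the study. All plants were untransformed Col-0 and had sodium chloride in their medium at 150 mM from day 16, the plants of 0.5 h included. Plants without salt were not analysed here, so a difference between 24 h and 0.5 h holds time in salt together with a day of growth. Salt was added early in the light period, so 24 h and 0.5 h fall at almost equal hours of the day. Whether paired arrays stem from separate cultures is not in the labels; the p-values cover the spread between the arrays, and that spread may be technical. Total RNA came from whole organs, in which fewer cells of a type and less RNA per cell cannot be told apart.

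Salt acts on a plant as an osmotic stress, which limits water uptake, and as an ionic stress, once sodium builds up in the cells. Roots meet the salt first, and shoots receive it later with the transpiration stream. In both organs abscisic acid, a hormone made under water deficit, switches on genes for dehydrins and other late embryogenesis abundant proteins, which protect membranes and proteins as cells lose water. Leaves also slow their growth, reroute carbon into sugars and starch and build up anthocyanins, while roots adjust respiration, transport and cell division.

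Over 15199 probe sets, which do not count as independent replicates, the arrays of a pair correlated at r (Pearson) of 0.979 to 0.984 in the 4 groups. The 2 root arrays of 12 h correlated at 0.857. They are not in the 4 groups compared, but enter the estimate of spread and the choice of probe sets, and give the root levels of 12 h below. The organs differed in their defining genes as labelled. Summed over 9 nuclear photosynthesis genes, root arrays held 3.43% and 2.83% at 24 h, against 1.52% and 2.09% at 0.5 h, of the mean over the 12 shoot arrays of all times. Summed over 4 root markers, PYK10, NAI2, EXPA18 and EXPA7, shoot arrays held 6.89% and 7.67% at 24 h, against 18.0% and 13.2% at 0.5 h, of the mean over the 12 root arrays of all times. Both sums moved between the times compared, and their part in the results was not tested. Values below are signals on a linear scale per array. Changes are limma's log2 differences ± SE after adding 2.205 to each signal, so changes of dim genes are understated, and a call needed a Benjamini-Hochberg adjusted p under 0.05 and at least a 2-fold difference. The number of arrays limits the precision.

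Roots and shoots differed in their change at 2644 of the 15199 probe sets tested (17.4%). The change was more positive in roots at 1368 (9.00%) and more negative in roots at 1276 (8.40%). Within roots, 1219 probe sets were higher at 24 h (8.02%) and 991 lower (6.52%). Within shoots, 1136 were higher at 24 h (7.47%) and 1058 lower (6.96%). The median interaction over all probe sets was -0.16 on the log2 scale. Of 613 probe sets that passed the test in both organs, 314 were higher at 24 h in both and 196 lower in both. Opposite directions, with the interaction called as well, were found at 83 probe sets that rose in roots and fell in shoots (0.546%) and at 20 that fell in roots and rose in shoots (0.132%). Without the first root array of 24 h these counts were 48 and 10.

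A change called in 1 organ, with the other organ neither called nor at or past 2-fold, made up most of the rest. It took in 483 probe sets that rose in roots (3.18%), 280 that fell in roots (1.84%), 477 that rose in shoots (3.14%) and 469 that fell in shoots (3.09%). Another 81 moved the same way in both organs by different sizes (0.533%). The last 751 called interactions fell in none of these classes, 692 of them since neither organ passed on its own. Low signal was more frequent in several classes than over all probe sets. Of the 483 that rose in roots, 61.7% had a mean below 41.7, the median of all values, at both times in shoots, against 21.8% of all probe sets tested. The share was 35% of the 280 that fell in roots and 35% of the 20 that fell in roots and rose in shoots. Of the 469 that fell in shoots, 39.2% were that dim in roots at both times, against 15.3% of all. In these a change of the other organ, if any, lay on signals in the lower part of the range. The plot of root changes against shoot changes shows the classes.

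**Figure D1:**
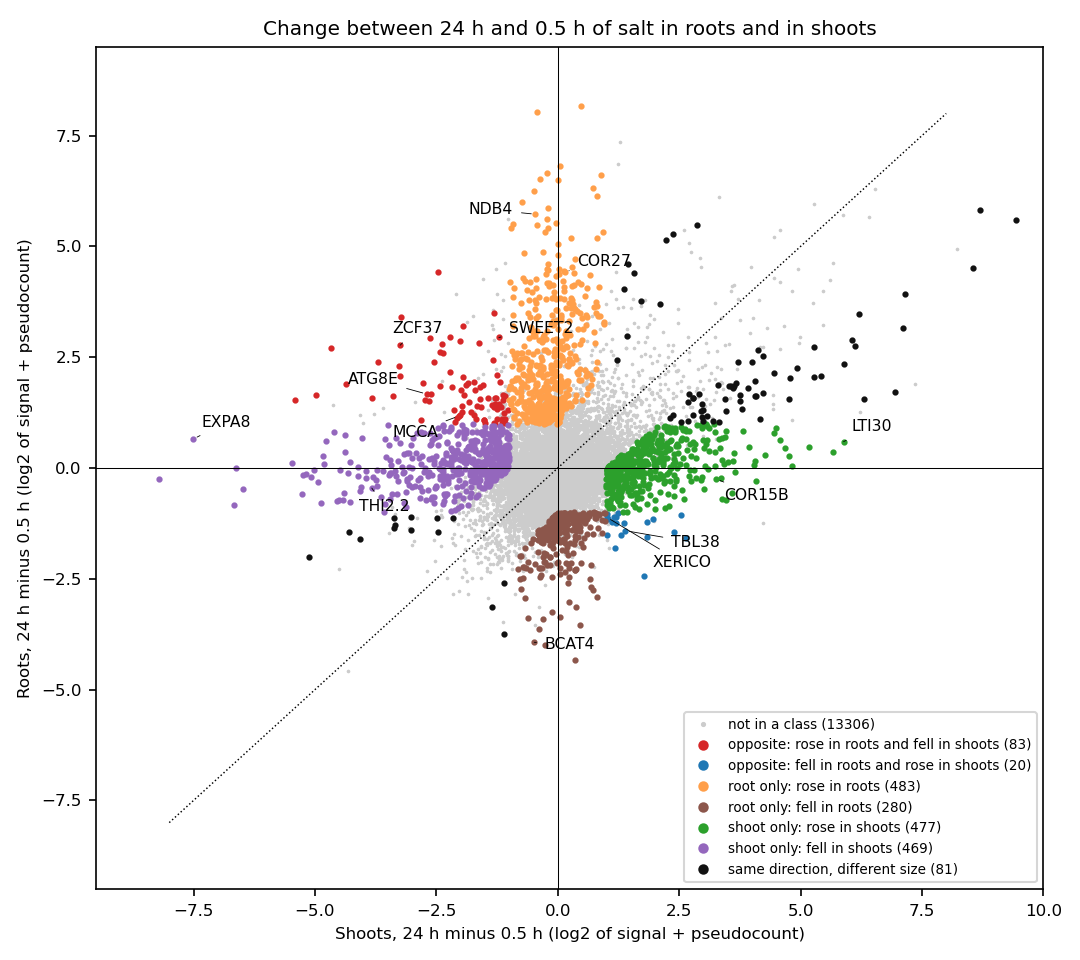
Change between 24 h and 0.5 h of salt in roots (vertical, log2) against the change in shoots (horizontal, log2) for 15199 probe sets, coloured by class. Points on the dotted line changed equally in both organs; the 83 red points rose in roots and fell in shoots, and the 20 blue points did the reverse.

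Among the genes that rose in roots and fell in shoots, the interaction was largest, for those with a gene symbol, at ZCF37. Its signals were 1593 and 1313 in roots at 24 h, against 224 and 197 in roots at 0.5 h. They were 1.55 and 2.66 in shoots at 24 h, against 31.0 and 47.2 in shoots at 0.5 h. The arrays of both times lay apart in each organ, and the interaction was 6.02 ± 1.03 (adjusted p = 0.00081). The shoot signal had dropped by 1 h, to 3.14 and 3.63, and with 1 h as the starting time the interaction of ZCF37 was 2.23 and not called.

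SWEET2, ATG8E and MCCA were in this class as well. SWEET2, a sugar transporter of the vacuole membrane that holds sugar in root cells, had 316 and 268 in roots at 24 h, against 34.1 and 37.7 in roots at 0.5 h. In shoots it had 106 and 146 at 24 h, against 242 and 350 at 0.5 h, so the order of the organs turned round. The interaction of SWEET2 was 4.16 ± 0.43 (adjusted p = 1.5e-05). Shoot signals of SWEET2 were lowest at 6 h, at 34.4 and 40.3, and had come part of the way back by 24 h.

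ATG8E, a ubiquitin-like protein attached to the membranes that form autophagosomes, had 731 and 709 in roots at 24 h, against 233 and 217 in roots at 0.5 h. Shoots had 63.1 and 57.5 at 24 h, against 371 and 437 in shoots at 0.5 h. The 2 root pairs and the 2 shoot pairs did not overlap, and the interaction of ATG8E was 4.37 ± 0.28 (adjusted p = 1.3e-07). From 1 h it was 2.52, still called. Its 6 measured relatives ATG8B, ATG8C, ATG8D, ATG8F, ATG8G and ATG8H gave no called interaction, with values between -0.49 and 0.78. That family was looked up after its values were seen.

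MCCA, a subunit of the mitochondrial methylcrotonyl-CoA carboxylase of leucine breakdown, had 328 and 287 in roots at 24 h, against 127 and 144 in roots at 0.5 h. Shoots had 72.3 and 65.5 at 24 h, against 247 and 340 at 0.5 h, and the interaction of MCCA was 3.21 ± 0.27 (adjusted p = 1.7e-06). A list of 12 genes of branched-chain amino acid breakdown, written after the values were seen, had 6 measured members. The interaction was called at 3, MCCA, its partner subunit MCCB (1.28) and the electron carrier ETFQO (1.49), all toward roots, beside 9.00% of all probe sets. IVD, which acts one step before MCCA and MCCB, rose in roots by 1.37 and had an interaction of 0.93, which was not called.

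GAT1_2.1, annotated as a glutamine amidotransferase, had 267 and 218 in roots at 24 h, against 56.4 and 57.3 in roots at 0.5 h. Its shoot signals were dim, 0.913 and 1.80 at 24 h, against 2.89 and 34.1 at 0.5 h, and those of 0.5 h lay far apart. The interaction of GAT1_2.1 was 3.99 ± 0.88 (adjusted p = 0.0042). Without the second shoot array of 0.5 h it was 2.57. The first shoot array of 0.5 h, at 2.89, lay near those of 24 h, so the fall in shoots rests on the second. With a pseudocount of 16 the interaction was 2.65 and called, and with 1 h as the starting time 2.42 and not called. AR781 had 1116 and 1063 in roots at 24 h, against 443 and 335 in roots at 0.5 h, and 15.8 and 20.9 in shoots at 24 h, against 61.1 and 79.6 in shoots at 0.5 h. Its interaction of 3.31 ± 0.69 (adjusted p = 0.0028) was 1.11 and not called from 1 h. Of the loci without a symbol, AT3G16530 had the largest interaction of this class. It had 108 and 166 in roots at 24 h, against 51.2 and 36.3 in roots at 0.5 h, and 19.9 and 28.7 in shoots at 24 h, against 304 and 451 in shoots at 0.5 h (interaction 5.41 ± 0.51, adjusted p = 5.4e-06). AT5G28630 and AT1G25400 had interactions of 5.34 and 5.20, which became 3.19 and 2.06, both still called, with 1 h as the starting time.

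**Figure D2:**
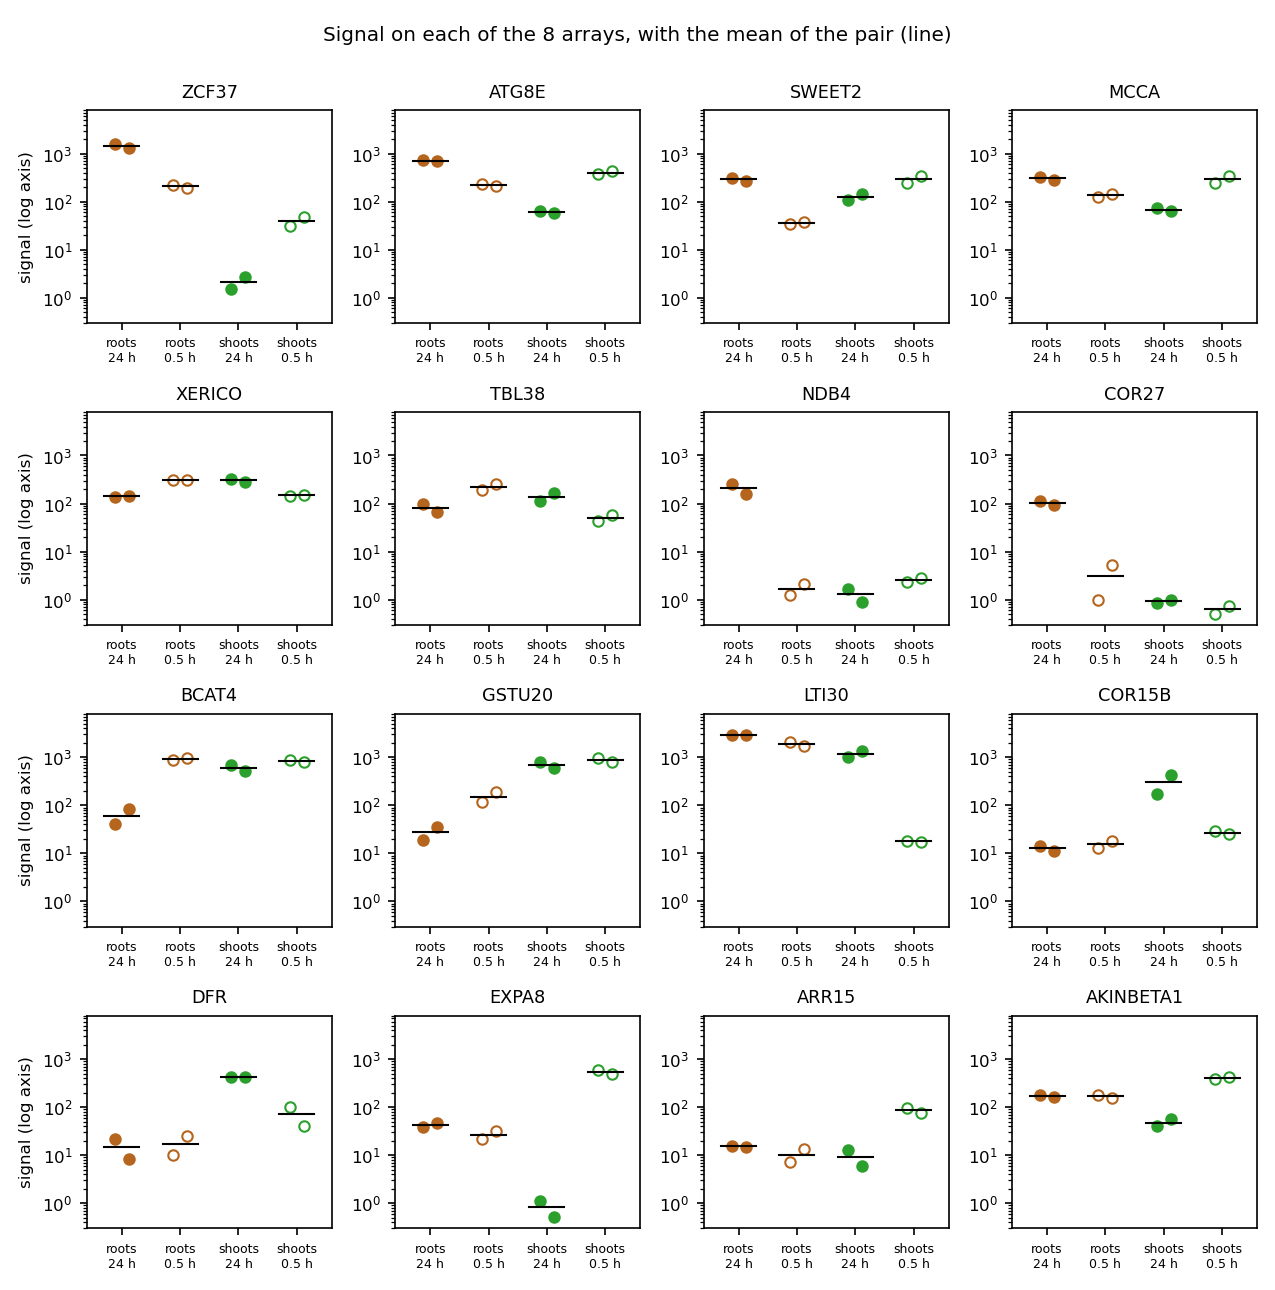
Signal (log axis) of single genes on each of the 8 arrays, with roots at 24 h and 0.5 h (brown) left of shoots at 24 h and 0.5 h (green). Filled points are 24 h, open points 0.5 h, and lines are means of the pair (n = 2). SWEET2 and XERICO changed rank between the organs, NDB4 was high in roots at 24 h alone, and LTI30 was low in shoots at 0.5 h alone.

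Genes that fell in roots and rose in shoots numbered 20, against 83 for the opposite pattern, an order that turned with no fold limit (206 against 177). XERICO, a RING finger protein that raises abscisic acid levels in Arabidopsis, had 139 and 143 in roots at 24 h, against 311 and 304 in roots at 0.5 h. Shoots had 330 and 276 at 24 h, against 143 and 154 at 0.5 h, so that each organ ended near the level at which the other began. The interaction of XERICO was -2.13 ± 0.22 (adjusted p = 1.2e-05). TBL38, of a family that acetylates cell wall polysaccharides, had 96.9 and 67.9 in roots at 24 h, against 193 and 250 in roots at 0.5 h, and 112 and 163 in shoots at 24 h, against 43.4 and 57.8 in shoots at 0.5 h. Its interaction of -2.80 ± 0.54 (adjusted p = 0.0019) was the most negative among members of the class with a symbol and a single gene.

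AGO7, an Argonaute protein of the small RNA pathway that controls leaf phase and shape, had an interaction of -2.43 ± 0.40 (adjusted p = 0.00064). GH9B8, a glycosyl hydrolase of the endoglucanase family, had one of -2.17 ± 0.45 (adjusted p = 0.0027). AGO7 was dim, with signals up to 42.0, and its interaction was -1.50 with a pseudocount of 16 and -1.52 from 1 h, called in both. Among loci without a symbol, AT5G37540 had 142 and 121 in roots at 24 h, against 381 and 341 in roots at 0.5 h, and 209 and 203 in shoots at 24 h, against 34.98 and 40.5 in shoots at 0.5 h. Its interaction was -3.83 ± 0.31 (adjusted p = 1e-06). AT2G46940 had the most negative interaction of the class, -4.22, on signals up to 50.8, and it was -2.13 with a pseudocount of 16. In all 83 and all 20 members of the opposite classes the arrays of 24 h and 0.5 h lay apart in both organs, a property that the calls nearly fix.

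Among genes that rose in roots only, a list of mitochondrial stress genes was measured at 7 members. It holds nuclear genes that plants switch on when respiration is disturbed, 18 in all. Like all lists here, it was chosen with earlier results of these data known, so its counts are descriptions and no independent support. All 7 rose in roots, 1 rose in shoots, and the interaction was called toward roots at 6, with a median of 5.61 against -0.16 over all probe sets. Over all probe sets 8.02% rose in roots, 7.47% rose in shoots and 9.00% were called toward roots. NDB4, an alternative NADH dehydrogenase on the outer face of the inner mitochondrial membrane, had 255 and 161 in roots at 24 h, against 1.26 and 2.11 in roots at 0.5 h. Its 4 shoot signals lay between 0.886 and 2.79, and the interaction of NDB4 was 6.19 ± 0.999 (adjusted p = 0.00053), or 3.73 with a pseudocount of 16. NDB4 in roots was still at 2.34 and 1.25 at 3 h and reached 173 and 65.4 at 6 h.

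The 1 measured member of the mitochondrial list with no called interaction was NDB2, another alternative NADH dehydrogenase of the same family. It had 1177 and 897 in roots at 24 h, against 275 and 302 in roots at 0.5 h, and 296 and 312 in shoots at 24 h, against 41.0 and 51.2 in shoots at 0.5 h. NDB2 rose in both organs, and its interaction of -0.85 ± 0.46 was not called (adjusted p = 0.18). The other 5 members have locus codes only. AT2G41730 had 3312 and 2958 in roots at 24 h, against 35.6 and 22.9 in roots at 0.5 h, and between 19.7 and 27.3 in shoots. Its interaction was 6.89 ± 0.91 (adjusted p = 0.00011), but its probe set is of the kind that can bind other transcripts. AT2G04050, AT2G04070, AT2G21640 and AT5G09570 had interactions of 5.63, 5.61, 4.31 and 2.35. AT2G04050 is in no class, since its shoot change of 1.23 was past 2-fold, though not called.

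The largest interaction among named loci that rose in roots only was that of AT1G74870, which carries no symbol. It had 977.5 and 999 in roots at 24 h, against 1.53 and 1.65 in roots at 0.5 h, while shoots stayed between 1.06 and 4.80 (interaction 8.46 ± 1.16, adjusted p = 0.00015). AT4G16680 had 928 and 924 in roots at 24 h, against 7.82 and 7.97 in roots at 0.5 h, with 10.9 to 16.6 in shoots (interaction 6.89 ± 1.02, adjusted p = 0.00028). Both were close to background at the start in roots and at both times in shoots.

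Beta-glucosidases release defence compounds and hormones from their glucosides. BGLU24 had 415 and 441 in roots at 24 h, against 18.0 and 16.2 in roots at 0.5 h, and at most 5.995 in shoots (interaction 4.68 ± 0.72, adjusted p = 0.00038). From 1 h the interaction of BGLU24 was 2.64, still called. BGLU27 had 504 and 420 in roots at 24 h, against 31.8 and 12.7 in roots at 0.5 h, and at most 7.53 in shoots (interaction 3.71 ± 0.81, adjusted p = 0.0041). Over the whole family, looked up after values were seen, 12 members were measured and the interaction was called toward roots at 5 and away from roots at 2, BGLU44 and BGLU25, beside 9.00% and 8.40% of all probe sets. BGLU44 fell in roots, with 20.6 and 23.9 at 24 h against 50.2 and 100.5 at 0.5 h. Its interaction of -1.3035 lost its call without any of 3 single arrays, from 1 h (-0.70) and with a pseudocount of 16 (-0.94). It lay between -1.79 and -0.82 as each array was left out.

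Of 23 genes on the clock list 3 were measured, and 2 of them rose in roots only, beside 3.18% of all probe sets. COR27, a cold-regulated repressor of clock genes, had 113 and 91.6 in roots at 24 h, against 0.974 and 5.14 in roots at 0.5 h, and at most 0.996 in shoots at these times (interaction 4.28 ± 0.66, adjusted p = 0.00039). With a pseudocount of 16 it was 2.61. COR27 was measured well in shoots at other hours, with 136 and 158 at 12 h, so the single-organ pattern held for the hour compared and not for the whole day. AT4G33980 had an interaction of 2.59 (1.70 with a pseudocount of 16), and GI, a clock protein that peaks late in the day, one of 0.46, which was not called. JRG21, a jasmonate-regulated gene, had 284 and 260 in roots at 24 h, against 15.6 and 11.7 in roots at 0.5 h, with at most 9.32 in shoots (interaction 3.79 ± 0.76, adjusted p = 0.0024). CML37, a calmodulin-like calcium sensor, had 678 and 760 in roots at 24 h, against 54.3 and 43.8 in roots at 0.5 h, and at most 1.001 in shoots. Its interaction of 3.85 was 2.40 and not called with 1 h as the starting time.

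BZIP60, the transcription factor that answers misfolded protein in the endoplasmic reticulum, had 1710 and 1368 in roots at 24 h, against 320 and 237 in roots at 0.5 h, and 176 and 185 in shoots at 24 h, against 153 and 125 in shoots at 0.5 h. The interaction of BZIP60 was 2.08 ± 0.61 (adjusted p = 0.021). It lost its call without any of 5 single arrays, with an adjusted p up to 0.076, and with 1 h as the starting time (1.59). Heat shock genes rose in both organs. All 8 measured members of that list rose in roots and 7 rose in shoots, and the interaction was called at 1, ATHSP22.0. Over all probe sets 8.02% rose in roots and 7.47% in shoots. ATHSP22.0, a small heat shock protein found in the endoplasmic reticulum, had 687 and 554 in roots at 24 h, against 15.5 and 8.70 in roots at 0.5 h, and 141 and 95.0 in shoots at 24 h, against 15.6 and 12.4 in shoots at 0.5 h. Its interaction of 2.61 ± 0.82 (adjusted p = 0.028) lost its call without any of 6 single arrays, with an adjusted p up to 0.10.

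**Figure D3:**
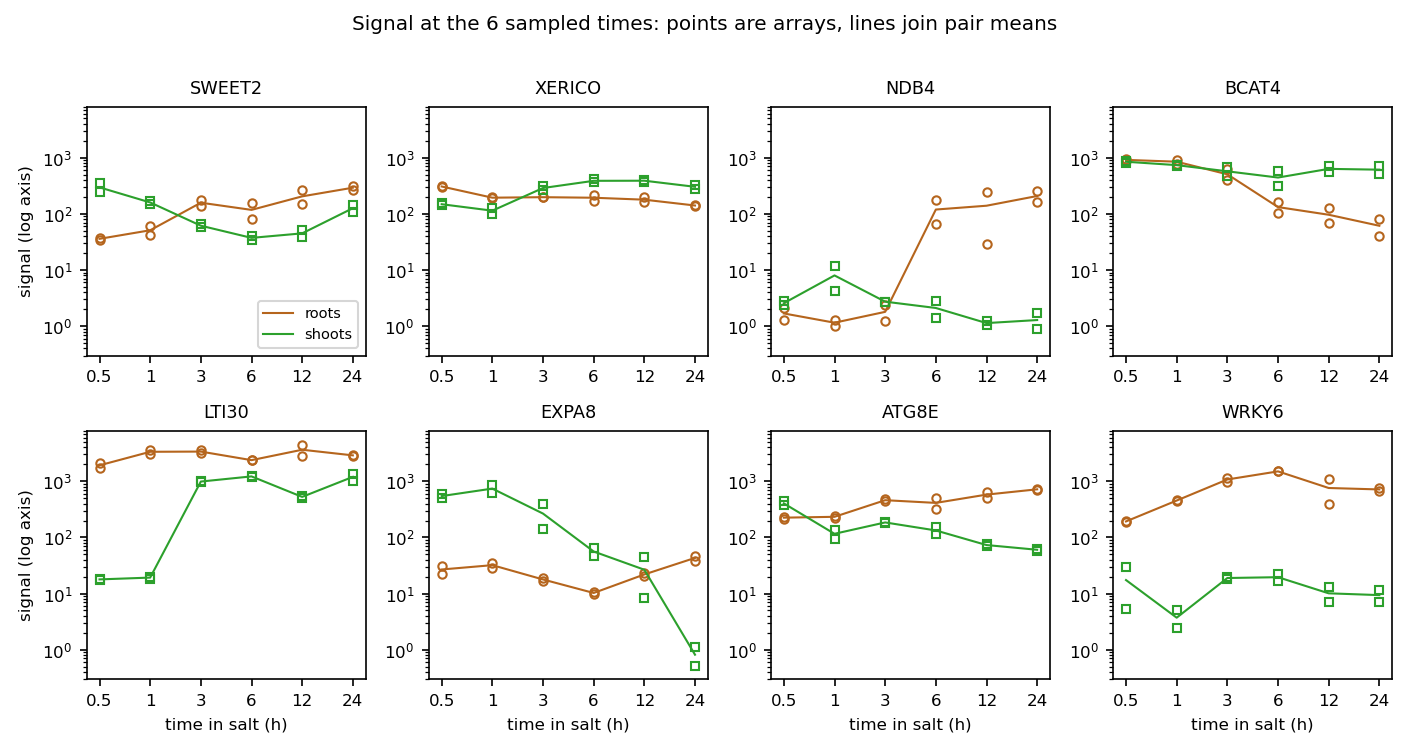
Signal (log axis) of single genes at the 6 sampled times in roots (brown) and shoots (green). Points are arrays and lines join the means of 2 arrays. NDB4 rose in roots between 3 h and 6 h, LTI30 in shoots between 1 h and 3 h, and EXPA8 in shoots was lower at each time after 1 h.

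Genes that fell in roots only included those of aliphatic glucosinolate synthesis, the sulfur-rich defence compounds of the cabbage family. Of 34 genes on that list 6 were measured, 3 fell in roots, none passed in shoots, and the interaction was called away from roots at the same 3, beside 6.52% of all probe sets that fell in roots and 8.40% called away from roots. BCAT4, the aminotransferase that starts methionine chain elongation, had 40.5 and 82.2 in roots at 24 h, against 875 and 954 in roots at 0.5 h. Shoots had 703 and 521 at 24 h, against 887 and 809 at 0.5 h, a change of -0.48 that was not called. The interaction of BCAT4 was -3.45 ± 0.51 (adjusted p = 0.00029). At 3 h BCAT4 still had 395 and 618 in roots, and 104 and 160 at 6 h.

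GSTU20, a glutathione transferase of the same route, had 18.7 and 36.2 in roots at 24 h, against 119 and 186 in roots at 0.5 h, and 800.5 and 600.1 in shoots at 24 h, against 988 and 782 in shoots at 0.5 h (interaction -2.07 ± 0.46, adjusted p = 0.0047). AT2G31790, the other called member, had an interaction of -1.92. The transporters GTR1 and GTR2, which load glucosinolates into the phloem, and UGT74B1, a glucosyltransferase of the core pathway, had interactions of -0.76, 0.15 and -0.39, none of them called. In the tau class of glutathione transferases, looked up after values were seen, the interaction was called away from roots at 4 of 9 and toward roots at none, beside 8.40% and 9.00% of all probe sets.

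PR-1-LIKE, related to the pathogenesis marker PR1, had 18.6 and 27.0 in roots at 24 h, against 242 and 262 in roots at 0.5 h, with 8.98 to 14.2 in shoots (interaction -3.41 ± 0.67, adjusted p = 0.0020). AT4G22212 had 68.2 and 101 in roots at 24 h, against 633 and 871 in roots at 0.5 h, with at most 11.9 in shoots. WAG2, a kinase that acts on auxin carriers, had an interaction of -2.16, which from 1 h was -1.22 and not called. All 5 measured genes of cell division fell in roots, and 1 of them, the topoisomerase TOPII, also fell in shoots, beside 6.52% and 6.96% of all probe sets. The interaction was called away from roots at 2 of the 5 (8.40% of all probe sets), the mitotic kinase AUR2 (-1.33) and the spindle checkpoint protein BUB3.1 (-1.21). Both lost their calls with 1 h as the starting time and without any of 3 or 4 single arrays, and BUB3.1 also with a pseudocount of 16 (-0.94).

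Abscisic acid, drought and salt inducible genes rose mainly in shoots. Of 34 listed, 9 were measured. In roots 1 rose and 1 fell, in shoots 7 rose and 1 fell, and the interaction was called away from roots at 6 and toward roots at 2, with a median of -2.73. Over all probe sets 8.02% rose and 6.52% fell in roots, 7.47% rose and 6.96% fell in shoots, 8.40% were called away from roots and 9.00% toward roots. LTI30, a dehydrin, had 2850 and 2942 in roots at 24 h, against 2106 and 1742 in roots at 0.5 h. Shoots had 1028 and 1368 at 24 h, against 18.5 and 17.3 in shoots at 0.5 h. The interaction of LTI30 was -5.29 ± 0.25 (adjusted p = 6.1e-09), and at 24 h its level was still 1.29 higher in roots on the log2 scale. Roots were thus high on all 4 arrays, 0.5 h included, and whether they were so before salt cannot be told from the plants analysed here.

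COR47, another dehydrin, had 2171 and 1959 in roots at 24 h, against 1589 and 1577 in roots at 0.5 h, and 2548 and 3308 in shoots at 24 h, against 296 and 375 in shoots at 0.5 h (interaction -2.73 ± 0.43, adjusted p = 0.00043). PUB19, a U-box ubiquitin ligase that damps the drought response, had the same form. It had 432 and 353 in roots at 24 h, against 377 and 323 in roots at 0.5 h, and 466 and 445 in shoots at 24 h, against 25.9 and 24.6 in shoots at 0.5 h (interaction -3.90 ± 0.56, adjusted p = 0.00022). Its relatives PUB22 and PUB23 were the 2 members called toward roots, at 3.15 and 2.24. PUB22 fell in shoots by 2.64, and PUB23 passed in neither organ.

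COR15B and its neighbour COR15A encode chloroplast proteins that stabilise membranes as water is lost. COR15B had 14.1 and 11.3 in roots at 24 h, against 13.0 and 18.3 in roots at 0.5 h, and 175 and 436 in shoots at 24 h, against 29.0 and 24.8 in shoots at 0.5 h (interaction -3.51 ± 0.54, adjusted p = 0.00038). COR15A had 43.6 and 34.0 in roots at 24 h, against 1.304 and 6.41 in roots at 0.5 h, and 1918 and 3282 in shoots at 24 h, against 44.9 and 27.8 in shoots at 0.5 h. COR15A rose in both organs, and its interaction of -3.17 ± 1.12 had an adjusted p of 0.047. These 2 genes stand side by side in the genome and resemble each other, so their probe sets may share signal.

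Late embryogenesis abundant proteins overlap with the group above in function. Of 28 listed, 13 passed the filter on dim signals, 5 rose in roots and 8 in shoots, and none fell in either organ. Over all probe sets 8.02% rose and 6.52% fell in roots, and 7.47% rose and 6.96% fell in shoots. The interaction was called away from roots at 6 and toward roots at none, with a median of -1.43, beside 8.40% and 9.00% of all probe sets. LEA4-5 had 1142 and 735 in roots at 24 h, against 58.1 and 57.8 in roots at 0.5 h, and 1182 and 1272 in shoots at 24 h, against 2.61 and 13.4 in shoots at 0.5 h. The signals at 24 h were near each other, from a start that was higher in roots (interaction -3.21 ± 0.82, adjusted p = 0.0098). DI21 had 733 and 743 in roots at 24 h, against 1072 and 773 in roots at 0.5 h, and 402 and 307 in shoots at 24 h, against 72.7 and 65.8 in shoots at 0.5 h (interaction -2.61 ± 0.43, adjusted p = 0.00064). AT3G17520 rose in both organs, by 4.94 in roots and 8.23 in shoots, and its interaction of -3.28 ± 1.202 was not called (adjusted p = 0.054).

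**Figure D4:**
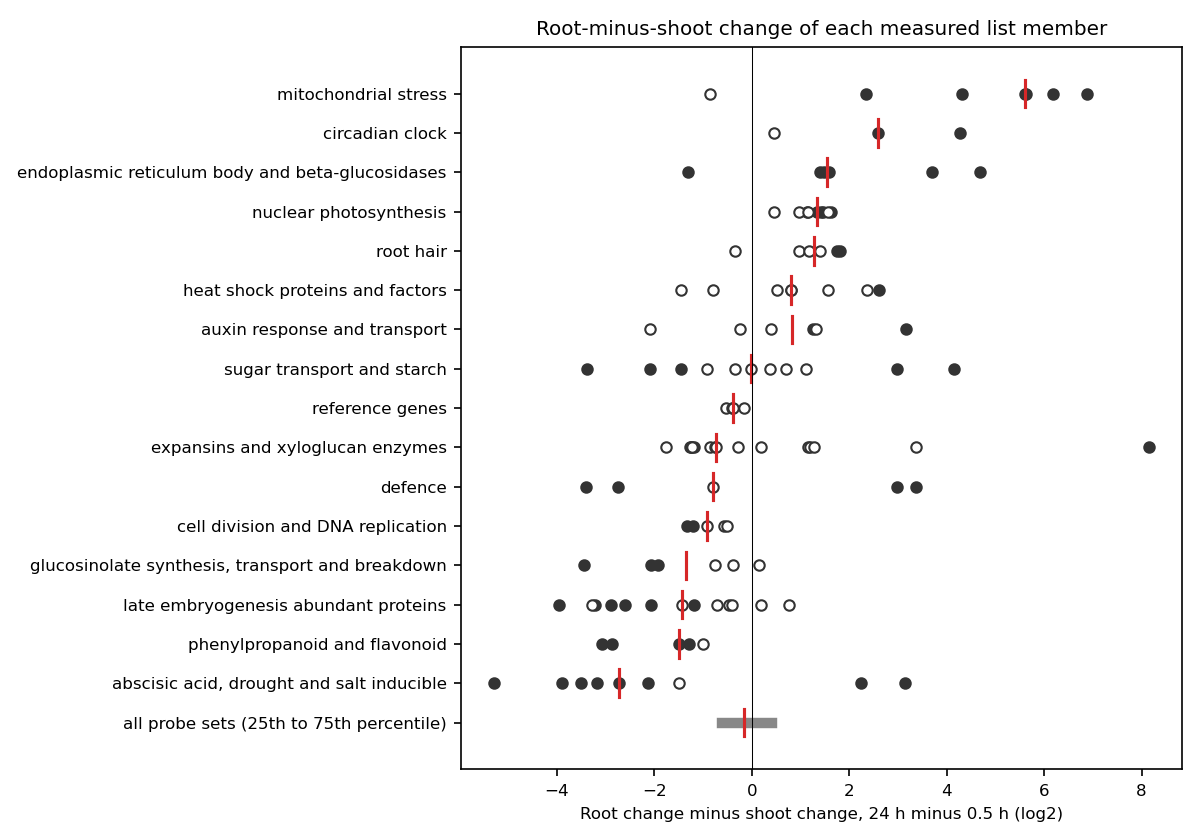
Root change minus shoot change (log2, 24 h minus 0.5 h) of each measured member of the gene lists shown. Filled points passed the interaction test, open points did not, red bars are list medians, and the grey bar spans the 25th to 75th percentile of all 15199 probe sets. The mitochondrial list had a median of 5.61 and the abscisic acid, drought and salt inducible list one of -2.73.

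Pigment and lignin genes rose in shoots. Of 5 measured, none passed in roots, 4 rose in shoots, and the interaction was called away from roots at 4, beside 7.47% of all probe sets that rose in shoots and 8.40% called away from roots. DFR, the reductase that leads to anthocyanins, had 21.8 and 8.45 in roots at 24 h, against 9.85 and 25.1 in roots at 0.5 h, and 415 and 434 in shoots at 24 h, against 101 and 40.0 in shoots at 0.5 h (interaction -2.87 ± 0.88, adjusted p = 0.026). UF3GT, which glycosylates anthocyanins, had 19.1 and 22.8 in roots at 24 h, against 17.9 and 34.4 in roots at 0.5 h, and 304 and 219 in shoots at 24 h, against 30.6 and 38.2 in shoots at 0.5 h (interaction -3.07 ± 0.73, adjusted p = 0.0066). UGT78D2, a flavonoid glucosyltransferase, had an interaction of -1.50. DFR lost its call without any of 5 single arrays and UGT78D2 without any of 6, with adjusted p up to 0.12 and 0.069. From 1 h UGT78D2 was at -1.11 and not called. CCR2, of lignin synthesis, had 276.5 and 286 in roots at 24 h, against 191 and 183 in roots at 0.5 h, and 32.4 and 34.0 in shoots at 24 h, against 9.55 and 5.66 in shoots at 0.5 h. Its interaction of -1.298 was -0.52 and not called with a pseudocount of 16, and -4.07 and called with 1 h as the starting time.

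The list of sugar transport and starch had a median interaction of -0.01, near that of all probe sets. APL4, a large subunit of ADP-glucose pyrophosphorylase, the entry enzyme of starch synthesis, had 7.69 to 9.17 on the 4 root arrays, and 227 and 165 in shoots at 24 h, against 20.3 and 11 in shoots at 0.5 h (interaction -3.38 ± 0.49, adjusted p = 0.00024). APL3, another large subunit, rose in both organs, by 2.66 in roots and 4.12 in shoots (interaction -1.46 ± 0.49, adjusted p = 0.038). SWEET4, a hexose transporter, had 54.3 and 35.1 in roots at 24 h, against 11.6 and 7.75 in roots at 0.5 h, and 249 and 412 in shoots at 24 h, against 16.4 and 18.1 in shoots at 0.5 h (interaction -2.08 ± 0.47, adjusted p = 0.0047). From 1 h it was -1.21 and not called. SWEET8 rose in roots by 2.88 and not in shoots. Over the list of sugar transport and starch, 11 members were measured. Of these 6 rose in roots, and 6 rose and 2 fell in shoots. Over all probe sets 8.02% rose in roots, 7.47% rose in shoots and 6.96% fell in shoots. The interaction was called toward roots at 2, SWEET2 and SWEET8, and away from roots at 3, APL4, SWEET4 and APL3. Over all probe sets 9.00% were called toward roots and 8.40% away from roots. WSD1, which makes wax esters of the cuticle, had at most 3.59 in roots, and 254 and 399 in shoots at 24 h, against 26.9 and 45.7 in shoots at 0.5 h (interaction -3.12 ± 0.65, adjusted p = 0.0031).

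Of the genes that fell in shoots only, EXPA8 had the largest interaction. EXPA8, an expansin that loosens cell walls, had 38.8 and 47.6 in roots at 24 h, against 22.2 and 31.6 in roots at 0.5 h, a change of 0.66 that was not called. Shoots had 1.11 and 0.522 at 24 h, against 596 and 495 in shoots at 0.5 h. The interaction of EXPA8 was 8.16 ± 0.72 (adjusted p = 2.6e-06). The other 14 measured expansins and xyloglucan enzymes ranged from -1.77 to 3.37, and the interaction was called at 1 of them, XTH32 (-1.19), which lost its call with 1 h as the starting time. The interaction of XTH32 lay between -1.61 and -0.76 as each array was left out, partly under the 2-fold limit. The median of the list was -0.73. Of its 15 measured members 1, EXPA8, was called toward roots and 1, XTH32, away from roots, beside 9.00% and 8.40% of all probe sets.

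ARR15, UGT76C2, AKINBETA1 and IAA29 also fell in shoots only. ARR15, a response regulator that cytokinin induces, had 7.06 to 15.9 on the 4 root arrays, and 12.6 and 5.82 in shoots at 24 h, against 98.2 and 76.0 in shoots at 0.5 h (interaction 3.55 ± 0.58, adjusted p = 0.00060). The interaction of ARR15 was 1.96 from 1 h and 2.296 with a pseudocount of 16, called in both. UGT76C2, which inactivates cytokinins by adding glucose, had 102 and 103 in roots at 24 h, against 78.9 and 81.3 in roots at 0.5 h, and 11.5 and 15.0 in shoots at 24 h, against 107 and 122 in shoots at 0.5 h (interaction 3.27 ± 0.32, adjusted p = 7.7e-06). AKINBETA1, a regulatory subunit of the energy-sensing kinase SnRK1, had 179 and 160 in roots at 24 h, against 176 and 158 in roots at 0.5 h, and 39.7 and 55.6 in shoots at 24 h, against 388 and 425 in shoots at 0.5 h (interaction 3.07 ± 0.31, adjusted p = 9.9e-06). The root pairs of AKINBETA1 overlapped, and its interaction from 1 h was 2.01, still called. IAA29, an auxin response repressor, fell in shoots by 2.45, with an interaction of 3.17, or 1.99 with a pseudocount of 16.

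THI2.2, a thionin, had at most 4.004 in roots, and 48.3 and 35.5 in shoots at 24 h, against 613 and 625 in shoots at 0.5 h (interaction 3.38 ± 0.32, adjusted p = 6.7e-06). AT1G22690 had 3.19 to 11.3 in roots, and 32.0 and 40.7 in shoots at 24 h, against 796 and 1100 in shoots at 0.5 h (interaction 5.42 ± 0.36, adjusted p = 1.3e-07). AT3G62950 had at most 0.819 in roots, and 0.381 and 0.425 in shoots at 24 h, against 116 and 110 in shoots at 0.5 h. With 1 h as the starting time its interaction of 5.57 was 1.84 and not called, and with a pseudocount of 16 it was 2.99 and called. The root signals of THI2.2 and AT3G62950 were near the lower end of the scale at both times.

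Allantoinase, ALN, which breaks down the purine product allantoin, fell in both organs by different sizes. It had 60.6 and 64.1 in roots at 24 h, against 164 and 147 in roots at 0.5 h, and 10.7 and 16.2 in shoots at 24 h, against 148 and 160 in shoots at 0.5 h (interaction 2.05 ± 0.38, adjusted p = 0.0014). The organs began level and ended 2.06 apart on the log2 scale. Among genes that rose in both, AT1G16850 rose by 1.70 in roots and 6.95 in shoots and AT5G52390 by 4.41 in roots and 1.57 in shoots. The interaction of AT1G16850 was -5.25, or -3.27 with a pseudocount of 16. That of AT5G52390 was 2.84, and it lost its call without any of 3 single arrays and with 1 h as the starting time (1.55).

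Members of the photosynthesis list, high in shoots, had interactions above 0 at all 9 measured genes, with a median of 1.35, and 5 passed the test, beside 9.00% of all probe sets called toward roots. Rubisco activase, RCA, had 342 and 258 in roots at 24 h, against 117 and 145 in roots at 0.5 h, and 4426 and 5298 in shoots at 24 h, against 5235 and 5677 in shoots at 0.5 h (interaction 1.35 ± 0.28, adjusted p = 0.0026). At 24 h the level of RCA in roots minus that in shoots was -4.02 on the log2 scale. PSAN, a photosystem I subunit, fell in shoots, with 1998 and 1777 at 24 h against 3644 and 4025 in shoots at 0.5 h. The 69 probe sets of the plastid genome, tallied after values were seen, had a median interaction of 0.67. The 5 that passed, all toward roots, are a smaller share than the 9.00% of all probe sets. Among root markers, PYK10, the beta-glucosidase of endoplasmic reticulum bodies, had 3728 and 3951 in roots at 24 h, against 3040 and 3261 in roots at 0.5 h. It fell in shoots, with 205 and 246 at 24 h, against 595 and 407 at 0.5 h. Its interaction of 1.41 lost its call without any of 7 single arrays and from 1 h (1.27), and with no filter its adjusted p was 0.051. NAI2 and NAI1, which shape and switch on these bodies, had interactions of 1.48 and 1.59. PYK10 and NAI2 are themselves in the root marker sum given above, as the 9 photosynthesis genes are in theirs, and the part of those sums in these values was not tested.

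The lists of abscisic acid signalling, ion transport, aquaporins, cellulose synthases and suberin had no probe set of a single named gene that passed the filter, and nothing is said of them. Reference genes, used to normalise other assays, gave no call at any of 4, with interactions between -0.52 and -0.17. Over all probe sets 17.4% had a called interaction. Of 12 ubiquitin-specific proteases, looked up after values were seen, none was called in any comparison, and their median interaction was -0.05. Over all probe sets 8.02% rose and 6.52% fell in roots, and 7.47% rose and 6.96% fell in shoots. So few members say little on how stable either set is.

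The changes that define the classes do not use the levels at the 4 times between the ends of the day. Arrays of these times did enter the filter and the estimate of spread, so they are not fully independent of the classes. At 1 h the median of roots minus shoots was 0.78 for the 83 probe sets that rose in roots and fell in shoots, and at 3, 6 and 12 h it was 2.35, 2.60 and 2.94. For the 20 that did the reverse it was 1.93 at 1 h and 0.73, 0.04 and -0.67 at 3, 6 and 12 h. The medians of all probe sets lay between 0.01 and 0.25 at these 4 times. A large part of the gap between the organs had opened or closed by 3 h. Of the 477 that rose in shoots only, 211 (44.2%) were called higher in roots at 1 h, against 23.5% of all probe sets. At 12 h 86 of them (18.0%) were, against 21.8% of all. Of the 469 that fell in shoots only, 217 (46.3%) were called lower in roots at 1 h, against 18.3% of all, and 141 (30.1%) at 12 h, against 19.2% of all. In both classes the share ordered this way was larger at 1 h than at 12 h. All root values of 12 h rest on the pair that correlated at 0.857, with 2902 probe sets at least 2-fold apart.

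**Figure D5:**
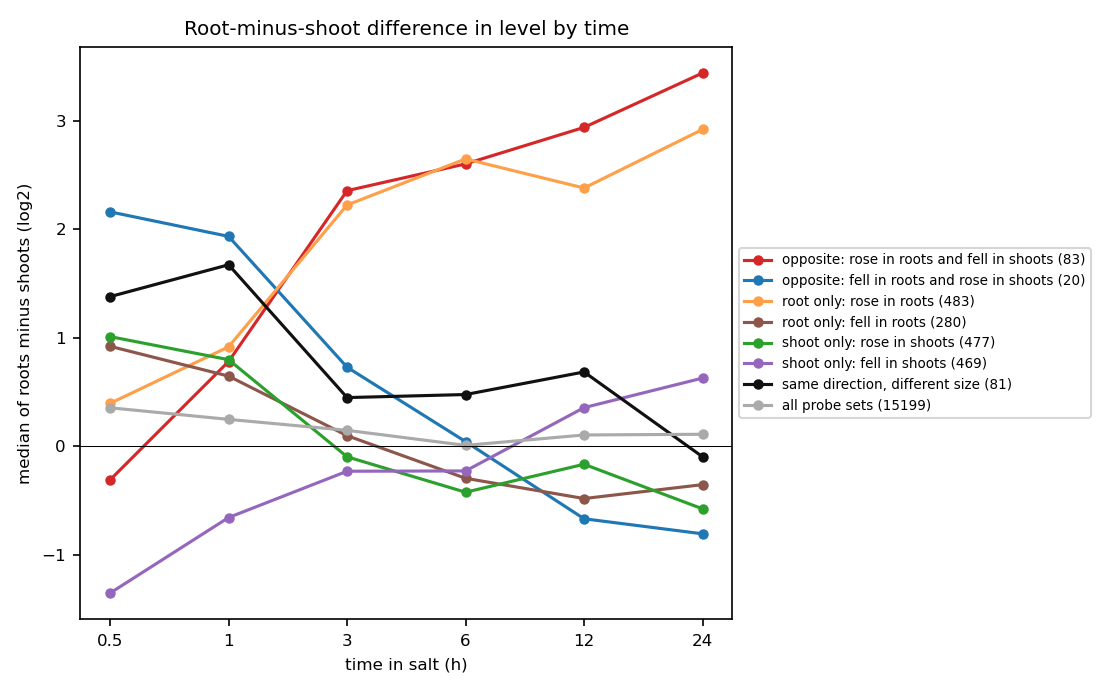
Median of roots minus shoots (log2 level) of each class at the 6 sampled times; grey is all 15199 probe sets. The classes were chosen by the changes between 0.5 h and 24 h. Arrays of the times between entered that choice through the filter and the estimate of spread only. At 3 h the red line stood at 2.35 and the blue line at 0.73.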

How the data were processed

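RNA from whole roots and shoots was hybridised to ATH1 arrays, 24 in all. The deposited values are linear intensity signals, 1 per probe set. MAS5 is the tool that the submitters' processing notes list, with a version not given in the sources used here. No further scaling was applied. Of 22810 probe sets, 64 controls were left out, and 15199 that reached 41.7, the overall median, on at least 2 of 24 arrays were tested, on a log2 scale after adding a pseudocount of 2.205 to the deposited signals. A probe set that is high in 1 group passed this filter through that group.

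All 24 arrays entered 1 fit of 12 group means with lmFit and eBayes with a trend (limma 3.58.1, R 4.3.3; figures with matplotlib 3.10.9, Python 3.11.15). It had 12 residual degrees of freedom, to which the prior added 4.15. Tests were two-sided, adjusted by Benjamini-Hochberg over all probe sets within a contrast. Calls required a 2-fold difference with an adjusted p under 0.05. The interaction was tested directly; the classes combine 3 tests and are descriptions. The procedure was checked on simulated data with independent noise. There 67 of 100 set interactions of 1.5 on the log2 scale and 96 of 100 of 3 were called, with 4 false calls. Interactions of the smaller size were thus often missed.

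Of all probe sets, 13513 had 1 gene in the annotation used, 503 several and 8794 none. Of those tested, 1180 had a symbol and 6944 a locus code only; names followed RefSeq. The genes named are, per class, the 6 largest interactions with a symbol and the 3 with a locus code, 3 either way of the same-direction class, and up to 4 called members per list. Other members named, and the families marked as looked up, were chosen after their values were seen. All members and lists were chosen with earlier results of these data known. Motifs in promoters were not searched.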

Additional observations from a re-analysis of the deposited data

Results flagged for a closer look

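Every result flagged in this section was a difference between the organs in the change between 24 h and 0.5 h, tested directly as an interaction. It was found at 1368 probe sets with a more positive change in roots and at 1276 with a more negative one. The leading gene with a symbol of each class gave 6.02 for ZCF37, which rose in roots and fell in shoots, and -2.80 for TBL38, which did the reverse. It gave 6.19 for NDB4, which rose in roots only, and -3.45 for BCAT4, which fell in roots only. LTI30, which rose in shoots only, gave -5.29, and EXPA8, which fell in shoots only, 8.16. Groups of 2 arrays were not tested for outlying arrays.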

How the results depend on the processing

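Counts of called interactions and of class members kept within 1.5 times under most alternatives, and the exceptions were these. With a pseudocount of 16, 52 probe sets rose in roots and fell in shoots and 7 did the reverse. With the 8 arrays alone, 127 rose in roots and fell in shoots and 161 moved the same way by different sizes; without both root arrays of 12 h the same-direction class held 140. With 1 h as the starting time 32 rose in roots and fell in shoots and 46 moved the same way. With no fold limit 3984 interactions were called, 2340 of them more negative in roots, and the classes held 177 and 206 (opposite), 917 (fell in roots only), 903 (rose in shoots only) and 215 (same direction). At an adjusted p under 0.01, 1620 were called, 818 and 802 by direction, and the classes held 39 and 9 (opposite), 268 and 144 (rose and fell in roots only), 307 (fell in shoots only) and 34 (same direction). With a 4-fold limit 931 were called, 687 and 244 by direction, and the classes held 15 and 0 (opposite), 241 and 36 (rose and fell in roots only), 102 and 163 (rose and fell in shoots only) and 19 (same direction). At an unadjusted p under 0.05, 6013 interactions passed.

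Leaving out each of the 24 arrays in turn gave 2012 to 3167 called interactions, 1019 to 1687 more positive in roots and 986 to 1482 more negative. The classes held 48 to 116 and 10 to 24 (opposite), 310 to 619 and 186 to 352 (rose and fell in roots only), 385 to 536 and 351 to 530 (rose and fell in shoots only) and 44 to 139 (same direction). The upper ends came from leaving out a root array of 12 h, the pair that differed most. The lower ends beyond 1.5 times came without the first root array of 24 h (48 and 10 opposite, 310 that rose in roots only, 47 same direction), the second shoot array of 0.5 h (54 opposite, 186 that fell in roots only) or a root array of 0.5 h (10 and 13 opposite, 44 and 47 same direction). Of 95 named genes 20 lost their call at least once and none turned.

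With 1 h as the starting time 19 named genes lost their call and 3 turned, ORA47 to -0.13, WRKY6 to -0.33 and AT5G38710 to -0.74, none of them called. Their main values were 2.51, 2.33 and 1.42. The named genes counted here and above are the 95 picked by rank or as called list members. Other genes named in the text, COR15A and APL3 among them, were not followed through the alternatives or with arrays left out. The pseudocount of 16 moved 18 called values by over 1.5 times and ended 5 calls. Another scaling moved the share of calls toward roots at most to 55.9% from 51.7%.

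The replicate numbers are shared by all groups. Deviations of same-numbered arrays of the 4 groups correlated between -0.069 and 0.066, and those of all 12 groups between -0.257 and 0.229. Whether same-numbered arrays share a culture or a batch cannot be told from these values, and the labels do not say. With the replicate block 2628 interactions were called, against 2644 without it, and the classes held 86 and 17 (opposite), 472 and 283 (rose and fell in roots only), 468 and 470 (rose and fell in shoots only) and 83 (same direction); WES1 was the named gene that lost its call.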

Other observations

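Several families that share a name were tallied after their values were seen. Of 5 WRKY factors measured, 3 were called toward roots. WRKY22 had 253 and 171 in roots at 24 h, against 33.3 and 32.8 in roots at 0.5 h, and 21.2 and 20.2 in shoots at 24 h, against 43.9 and 55.3 in shoots at 0.5 h, with an interaction of 3.75 ± 0.69. Of 4 jacalin-related lectins, which bind sugars, 3 were called toward roots, between 2.05 and 2.12. JAL34 had 2819 and 3177 in roots at 24 h, against 2576 and 2853 in roots at 0.5 h, and 85.3 and 80.9 in shoots at 24 h, against 337 and 311 in shoots at 0.5 h. Of 9 basic leucine zipper factors 4 were called toward roots and none away from roots. Of 8 aldehyde dehydrogenases 3 were called away from roots, the largest ALDH7B4 (-2.46), which detoxifies aldehydes formed under stress. Of 8 tetraspanins 3 were called away from roots and 1, TET8, toward roots (1.60). Of 33 UDP-glycosyltransferases 6 were called toward roots and 4 away from roots. Beside these, 9.00% of all probe sets were called toward roots and 8.40% away from roots.

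Genes that neighbour each other in the genome were also set side by side. Of 2588 neighbouring pairs in which both genes were measured, 799 had at least 1 called interaction and 103 had both called. Over all probe sets 17.4% were called, 9.00% toward roots and 8.40% away from roots. With such shares, pairs with 1 or both called arise without any tie between neighbours. In 71 of the 103 both interactions had the same sign and in 32 the opposite one. Probe sets of similar neighbours, such as COR15B and COR15A, may share signal, and no test of these counts was made.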
